A study of Homo sapiens with 12 samples.

Results

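The regions described here are H3K27ac peak regions that appeared in CFPAC1 cells after interferon beta (IFN-β) and had no peak in MiaPaCa2 cells. Peaks on chromosomes 1 to 22 and X from the 8 bulk libraries of both lines were merged into 170420 loci. A locus was kept when peaks of both IFN-β libraries of CFPAC1 overlapped it (1 bp or more), while neither untreated CFPAC1 library and none of the 4 MiaPaCa2 libraries did. This left 2544 restricted gained loci, 1.49% of all merged loci. All 3201 loci that met the CFPAC1 condition alone made up 1.88%, so the restricted loci are most of the CFPAC1 gain. Gain in both lines by the same condition was found at 216 loci (0.127%), and gain in MiaPaCa2 only, with no CFPAC1 peak, at 1052 loci (0.617%). The reverse pattern was more frequent than the restricted gain. A peak in both untreated and neither treated CFPAC1 library, with none in MiaPaCa2, was found at 5488 loci (3.22%). The restricted loci were thus selected on the deposited peaks of these 8 libraries, whose presence, absence and size are given as a description, with no test.

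CFPAC1 and MiaPaCa2 are human pancreatic ductal adenocarcinoma cell lines, and the series concerns the transcription factor IRF1 in low-grade pancreatic cancer cells. Bulk CFPAC1 and bulk MiaPaCa2 cells were each profiled untreated and after 1000 U/ml of human IFN-β for 2 h. The remaining libraries come from clonal CFPAC1 lines obtained by dilution. The wild-type (WT) clones had been infected with the lentiCRISPRv2 plasmid, for which the labels name no guide, and the IRF1 knockout clones with the same plasmid expressing wild-type Cas9 and a guide RNA to IRF1. No IFN-β treatment is given for any clone. Each of the 6 groups has 2 libraries, so n = 2 in every group, and all used the same H3K27ac antibody. CFPAC1 was grown in IMDM and MiaPaCa2 in DMEM, so the line differences below cannot be told apart from a difference in medium. Separate cultures are not stated in the labels for the bulk pairs, whose spread may be technical. A clone library stands for 1 clone, and differences between clones that have nothing to do with IRF1 are part of its spread.

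H3K27ac, acetylation of lysine 27 on histone H3, marks active promoters and active enhancers, the distal elements that raise transcription of genes often far away on the chromosome. IFN-β is a type I interferon. Its receptor activates the kinases JAK1 and TYK2, and signalling leads to transcription factor binding at the interferon-stimulated response element (ISRE) of interferon-stimulated genes. The gamma-activated site (GAS) is another DNA motif of interferon responses. IRF1 is itself induced by interferons and binds ISRE-like sequences.

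Promoters that overlap a restricted locus and hold an interferon-response motif anywhere in their window are shown first, to give the sequence at these regions. Of 34961 promoter windows in the RefSeq table (GRCh38.p14, from 250 bases before to 50 bases after a gene's start), 38 lay over a restricted locus, and 19 of these belong to protein-coding genes. Both strands of each window were searched for the ISRE core (GAAA, any 2 bases, GAAA), for GAS as TTCNNNGAA and for the AP-1 site TGANTCA. The ISRE core was in 6 of the 38 windows (15.8%) and in 3.58% of all windows. GAS was in 3 (7.89%) against 7.66% of all, and AP-1 in 8 (21.1%) against 7.68% of all. These are counts of letter matches, and no binding was measured.
The protein-coding promoters with an ISRE core or GAS match follow, as the 250 bases before the start, 5′ to 3′ on the gene's strand with matches in capitals.
CXCL10: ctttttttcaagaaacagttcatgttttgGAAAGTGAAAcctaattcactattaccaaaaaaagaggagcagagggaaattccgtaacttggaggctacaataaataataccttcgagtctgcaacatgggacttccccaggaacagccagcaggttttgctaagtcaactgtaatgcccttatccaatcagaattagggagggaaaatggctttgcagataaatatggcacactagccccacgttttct
CXCL11: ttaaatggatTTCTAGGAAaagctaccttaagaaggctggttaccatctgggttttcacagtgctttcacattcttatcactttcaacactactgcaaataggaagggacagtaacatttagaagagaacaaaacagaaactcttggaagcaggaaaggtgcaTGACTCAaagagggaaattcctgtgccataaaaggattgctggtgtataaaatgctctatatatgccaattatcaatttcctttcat
SLFN12L: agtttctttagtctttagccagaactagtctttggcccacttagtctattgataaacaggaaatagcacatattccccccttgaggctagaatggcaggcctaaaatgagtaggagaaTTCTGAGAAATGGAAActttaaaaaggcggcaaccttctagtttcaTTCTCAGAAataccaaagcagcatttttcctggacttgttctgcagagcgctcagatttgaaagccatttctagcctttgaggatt
MAPK10: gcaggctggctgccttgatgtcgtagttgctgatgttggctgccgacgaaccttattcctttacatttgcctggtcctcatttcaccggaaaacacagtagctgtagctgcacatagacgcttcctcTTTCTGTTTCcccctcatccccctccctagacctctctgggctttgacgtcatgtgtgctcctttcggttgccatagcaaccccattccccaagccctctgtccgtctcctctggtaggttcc
CXCL10 and CXCL11 encode chemokines that attract activated T cells through the receptor CXCR3. The printed part of the CXCL10 window is chr4:76023498-76023747 (minus strand), and its ISRE core spans positions -221 to -212, counted back from the start. The printed part of the CXCL11 window is chr4:76036071-76036320 (minus strand), with GAS at -240 to -232 and AP-1 at -87 to -81. A second GAS match lies after the start, at positions 18 to 26, and is not in the printed bases. Restricted loci cover all 250 printed bases of both windows and hold all of these matches. SLFN12L belongs to the Schlafen family, and the printed part of its window is chr17:35537679-35537928 (minus strand). There the ISRE core at -126 to -117 overlaps GAS at -132 to -124, a pairing found in 0.0629% of all windows. Of the printed bases, the restricted locus covers only the 101 nearest the start, with the GAS at -86 to -78 but neither of the overlapping matches. MAPK10 encodes a JNK kinase, and the printed part of its window is chr4:86360054-86360303 (minus strand). Its ISRE core reads on the opposite strand at -123 to -114, outside the 99 bases that the locus covers.

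Across the 12 libraries, 59896 to 109834 peaks were used, with 63.6 to 94.8 Mb under them. Covered length was 89.8 ± 7.15 Mb in untreated and 76.8 ± 0.183 Mb in treated CFPAC1 (mean ± SD, n = 2). Read depth is unknown. Both untreated CFPAC1 libraries had a peak at (within 1 kb of) all 12 epithelial marker genes. Both untreated MiaPaCa2 libraries had one at 8 of the 12, with none at CDH1, EPCAM, GRHL2 or KLF5. No library had a peak at PTPRC, which encodes the pan-leukocyte antigen CD45. Within 5 kb of the start of IRF1, peaks covered 5485 and 5611 bp in the WT clones and 7533 and 8924 bp in the knockout clones. Acetylation at the locus does not check whether IRF1 protein was lost.

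The restricted loci were mostly weak peaks. Their strongest deposited fold over background had a median of 4.87 in treated library 1 and 4.41 in treated library 2, against 5.47 and 5.21 over all peaks of those libraries. Only 12 and 8 of the 2544 loci ranked among the top 10% of peaks. Their median covered length was 461 and 373 bp, with maxima of 5782 and 3774 bp. Summits in the treated pair lay a median of 114 bp apart, and within 250 bp at 80.6% of restricted loci. For loci gained in both lines the median was 131.5 bp.

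**Figure D1:**
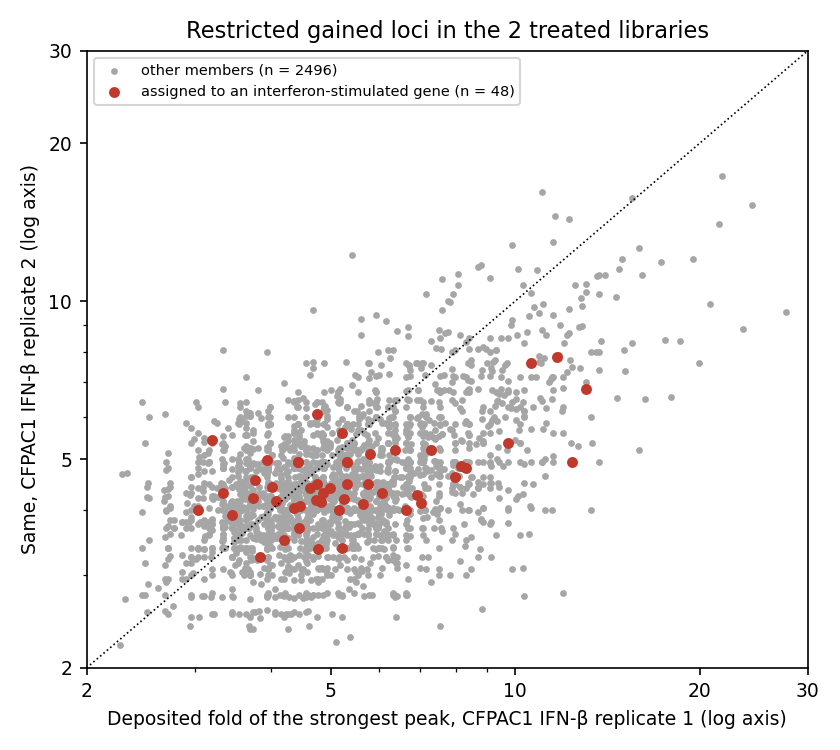
Deposited fold of the strongest peak at each of the 2544 restricted gained loci in treated CFPAC1 library 1 (horizontal) and library 2 (vertical), on log axes, with the dotted line marking equal values. The 48 loci assigned to interferon-stimulated genes (red) lie within the cloud of the others, and the highest folds, up to 27.7 in library 1 and 17.3 in library 2, belong to other loci.

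The rule has an edge set by peak calling. The smaller of the 2 treated −log10 q values was as low as 1.31 among the restricted loci and had a median of 4.30. Just outside were 2752 loci with a peak in 1 untreated library, whose −log10 q there had a median of 5.53 and went down to 1.30. A further 10012 loci had a peak in only 1 treated library (median −log10 q 3.67), and 256 gained loci missed the rule through 1 MiaPaCa2 library. With untreated library 2 left out, 4887 loci met the rule. With treated library 1 or 2 left out, 7199 and 9386 did.

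At interferon-stimulated genes, 48 restricted loci lay at 30 of 109 annotated genes of a list of such genes. A locus was assigned to the protein-coding gene with the nearest end, within 50 kb. This is 1.89% of the restricted loci, against 0.448% of all merged loci, 6.94% of loci gained in both lines (15 loci) and 0.665% of those gained in MiaPaCa2 only (7 loci). The restricted loci thus carried a share of interferon gene loci above that of all merged loci and below that of the loci gained in both lines, as a description. Of the 48, 39 had no peak in any clone. At CMPK2, HERC6 and SP100, which have restricted loci, 1 further locus each was gained in both lines. The restriction to CFPAC1 thus holds for loci and not for every gene named below. The count was 93 without treated library 1 (1.29% of the loci that then met the rule) and 166 without treated library 2 (1.77%). It was 23 when peaks within 500 bp were merged (1.37%).

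The CXCR3-ligand genes CXCL9, CXCL10 and CXCL11 held the largest such group, with 8 restricted loci over 61.0 kb (chr4:76006481-76067529). Peaks within this span covered 244 and 1473 bp in untreated CFPAC1, 18460 and 11569 bp after IFN-β, and 0 bp in all 4 MiaPaCa2 libraries. In the clones they covered 405 and 286 bp (WT) and 501 and 686 bp (IRF1 knockout). The treated CFPAC1 libraries lay far above all 10 others, and the clones stayed within the untreated range. The span also includes part of ART3, whose transcribed region overlaps the chemokine genes.
The largest of the 8 loci covers the CXCL11 promoter printed above (chr4:76034325-76037758), with 3434 and 2215 bp and folds of 11.7 and 7.81 in the treated libraries. The locus over the CXCL10 promoter (chr4:76023293-76025134) was covered over 1749 and 1166 bp with lower folds, 4.44 and 3.70. The CXCL9 locus (chr4:76006481-76007031) lies inside the gene, 0.478 kb from its end, and was covered over 378 and 453 bp.

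Genes of intracellular antiviral defence formed another series of loci. RSAD2 encodes viperin, an enzyme that makes a chain-terminating nucleotide, and its neighbour CMPK2 encodes a mitochondrial nucleotide kinase. Inside RSAD2 lay 4 restricted loci (chr2:6868555-6873546), assigned to CMPK2 because its end is nearer. Their span was covered over 3421 and 1946 bp in the treated CFPAC1 libraries and 0 bp in the 10 others.
OAS1, a sensor of double-stranded RNA that activates RNase L, had 3 loci. The one outside the gene (chr12:112934566-112935144) was covered over 579 and 450 bp with folds of 7.30 and 5.21. OASL, a relative without that enzyme activity, had 1 locus of 332 and 238 bp, with 364 bp in WT clone 1. IFIT1, which binds viral RNA lacking cap methylation, had 1 locus inside the gene (chr10:89394673-89395163) of 491 and 218 bp.
IFI44, IFI44L, IFI6, RTP4, HERC6, SAMD9L, PARP14 and IFI16 each had 1 or 2 restricted loci. Of these, the RTP4 locus (chr3:187364444-187365303) had folds of 7.97 and 4.61, and the SAMD9L locus (chr7:93150477-93150841) of 8.16 and 4.86. None of these 9 loci had a peak in any clone. TNFSF10, which encodes the death ligand TRAIL, had 2 loci, of 230 and 455 bp and of 611 and 376 bp.

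The APOBEC3 genes encode cytidine deaminases that mutate viral DNA. Near APOBEC3A lay 4 restricted loci over 14.9 kb (chr22:38953188-38968048). Peaks there covered 0 bp in both untreated CFPAC1 libraries and 2994 and 2167 bp after IFN-β. Outside treated CFPAC1, only untreated MiaPaCa2 library 1 (273 bp, outside the restricted loci) and knockout clone 2 (667 bp) had a peak. The strongest of the 4 by its smaller fold, chr22:38953188-38954093, had folds of 10.6 and 7.61. APOBEC3G had 1 locus inside the gene (chr22:39077413-39077799), with folds of 13.1 and 6.81 and with 341 bp in WT clone 1 and 280 bp in knockout clone 1.

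Guanylate-binding proteins are interferon-induced GTPases that attack the vacuoles of intracellular pathogens. GBP1 had 1 restricted locus of 351 and 201 bp (chr1:89064181-89064531) and GBP5 had 3. GBP6, which was not in the list, had 5 restricted loci, of which 4 formed a group within 5.93 kb (chr1:89356805-89362734). That group was covered over 3634 and 1646 bp in the treated CFPAC1 libraries and 0 bp in the 10 others. All 9 GBP loci were without a clone peak.

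Among the signalling genes of the pathway, 10 restricted loci lay at 6 of 41 listed genes, 0.393% of the restricted loci against 0.227% of all loci. IRF8, a transcription factor of immune cells that pairs with other factors at ISRE-like sites, had 4 loci. Those between 35.2 and 38.1 kb from its end were covered over 1946 and 520 bp, 681 and 565 bp, and 563 and 474 bp, with folds of 5.37 to 9.74 and no clone peak. IRF2, which competes with IRF1 for its sites, had 2 loci, and the one inside the gene (chr4:184399162-184400553) had folds of 12.3 and 14.3. SOCS1, an inhibitor of JAK kinases, had a locus of 229 and 200 bp inside the gene, 168 bp from an untreated peak. JAK1 and STING1, the adaptor of cytosolic DNA sensing, each had 1. Further loci were gained in both lines at IRF8 (2 loci) and SOCS1 (1 locus), so these genes also gained peaks in MiaPaCa2.

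At 35 antigen presentation genes lay 2 restricted loci (0.0786%, near the 0.0886% of all loci): 264 and 257 bp at HLA-G, and 688 and 763 bp at 16.8 kb from HLA-DRA. Of 37 NF-κB and inflammatory genes, PTGS2 (cyclooxygenase 2) alone had restricted loci, 2 of them (0.0786% against 0.223% of all loci). Epithelial genes had 2 (GRHL2; 0.0786% against 0.134% of all loci) and mesenchymal genes 2 (FN1 and ZEB1; 0.0786% against 0.0405%). Endothelial genes had 1 (VWF; 0.0393% against 0.0446%), fibroblast genes 1 (COL1A1; 0.0393% against 0.0288%) and leukocyte genes 0 (against 0.0235%). With 0 to 2 loci a list, nothing is read from these shares.

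Ranked by the worse of the 2 fold ranks, the 20 strongest restricted loci included 1 locus of the lists above, the IRF2 intragenic locus. Of these 20, 12 had no protein-coding gene end within 50 kb, 14 lay over 10 kb from any untreated CFPAC1 peak and 14 had no clone peak. The leading locus (chr3:109120405-109123242) lies 2.27 kb from an end of MORC1, a gene best known from the male germ line, with 2708 and 2604 bp and folds of 21.8 and 17.3. Next came a locus 95.4 kb from HAS2, a hyaluronan synthase (chr8:121513266-121516702), with 3437 and 2848 bp and folds of 24.3 and 15.2. The locus inside ADPRH near its end, which encodes an ADP-ribosylarginine hydrolase (chr3:119585784-119589793), had 4010 and 2718 bp and folds of 21.5 and 14.0. None of these 3 had any peak in the 4 clones.
Loci inside CYSTM1, KDM6A and INPP4B were also among the top 20. KDM6A encodes a histone H3K27 demethylase and INPP4B a phosphoinositide phosphatase. Their folds were 19.5 and 12.02 (chr5:140205831-140208061), 16.1 and 11.2 (chrX:45070164-45072889), and 14.8 and 11.5 (chr4:142313886-142316101), with 0 bp in every clone. A locus 450 kb from BMP2, a bone morphogenetic protein (chr20:7230439-7233330), was covered over 2555 and 2710 bp with folds of 17.3 and 11.8.
The widest locus lay over an end of LINGO1, a neuronal surface protein (chr15:77611550-77617331), with 5782 and 3300 bp. The second, inside ARL15 (chr5:54086196-54090769), had 4327 and 3774 bp. It also had 434 bp in WT clone 1 and 1426 bp in knockout clone 2, the only clone peaks among the 10 widest loci. Loci near RASGRF2 and SLIT2 and inside VSNL1 and SIK3 had 2649 to 3062 bp in treated library 1 and 2654 to 2808 bp in treated library 2.

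With a gap of at most 25 kb, chosen after the positions were seen, 1701 restricted loci stood alone and 843 fell into 353 groups of at least 2. Of these groups, 28 held 4 or more. The largest group had 15 restricted loci within 37.1 kb (chr5:130520766-130557826), 334 kb from CHSY3, a chondroitin synthase. Peaks in its span covered 920 and 2528 bp in untreated CFPAC1, 14498 and 15473 bp after IFN-β and 0 bp in all MiaPaCa2 libraries. In the clones they covered 2150 and 1583 bp (WT) and 1922 and 3060 bp (knockout), close to the untreated values.
Near ETS2, a transcription factor of the ETS family, 9 restricted loci lay in a span of 56.0 kb (chr21:38737608-38793610). This span was not silent before treatment, with 11810 and 11227 bp in untreated and 31207 and 27179 bp in treated CFPAC1. MiaPaCa2 had fewer bp under peaks there, outside the restricted loci themselves. Its cover of the span was also higher after IFN-β, with 2491 and 1559 bp untreated and 5315 and 4301 bp treated.
XCL2 and XCL1 encode chemokines whose receptor is XCR1. A group of 7 restricted loci lay 35.8 kb from XCL2 (chr1:168441009-168504926) and a group of 6 around XCR1 (chr3:46079374-46131166). FYCO1, CCR1 and CCR3 also lie within 100 kb of the XCR1 group. A link of either group to these genes was not tested. The XCL2 span was covered over 13707 and 16654 bp in untreated and 27515 and 22685 bp in treated CFPAC1. The XCR1 span was covered over 5729 and 10936 bp, then 18108 and 19148 bp. Both spans had 0 bp in MiaPaCa2, and the clones lay between 5635 and 15265 bp.
Other groups had no peak outside treated CFPAC1. A group of 4 within 5.14 kb (chr16:11306402-11311544), 25.1 kb from the protamine gene PRM1 and within 100 kb of SOCS1, was covered over 4623 and 3030 bp with a largest fold of 20.8. A group of 4 inside NEXN, which encodes an actin-binding protein, had 4094 and 3354 bp. PIK3AP1, an adaptor of phosphoinositide 3-kinase signalling in immune cells, had 5 restricted loci with no clone peak, which did not form 1 group. Untreated CFPAC1 peaks lay 0.578 to 3.18 kb from them, so this region was not silent before treatment. The widest locus had 1680 and 1115 bp with folds of 9.53 and 4.85 (chr10:96641207-96642974).

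**Figure D2:**
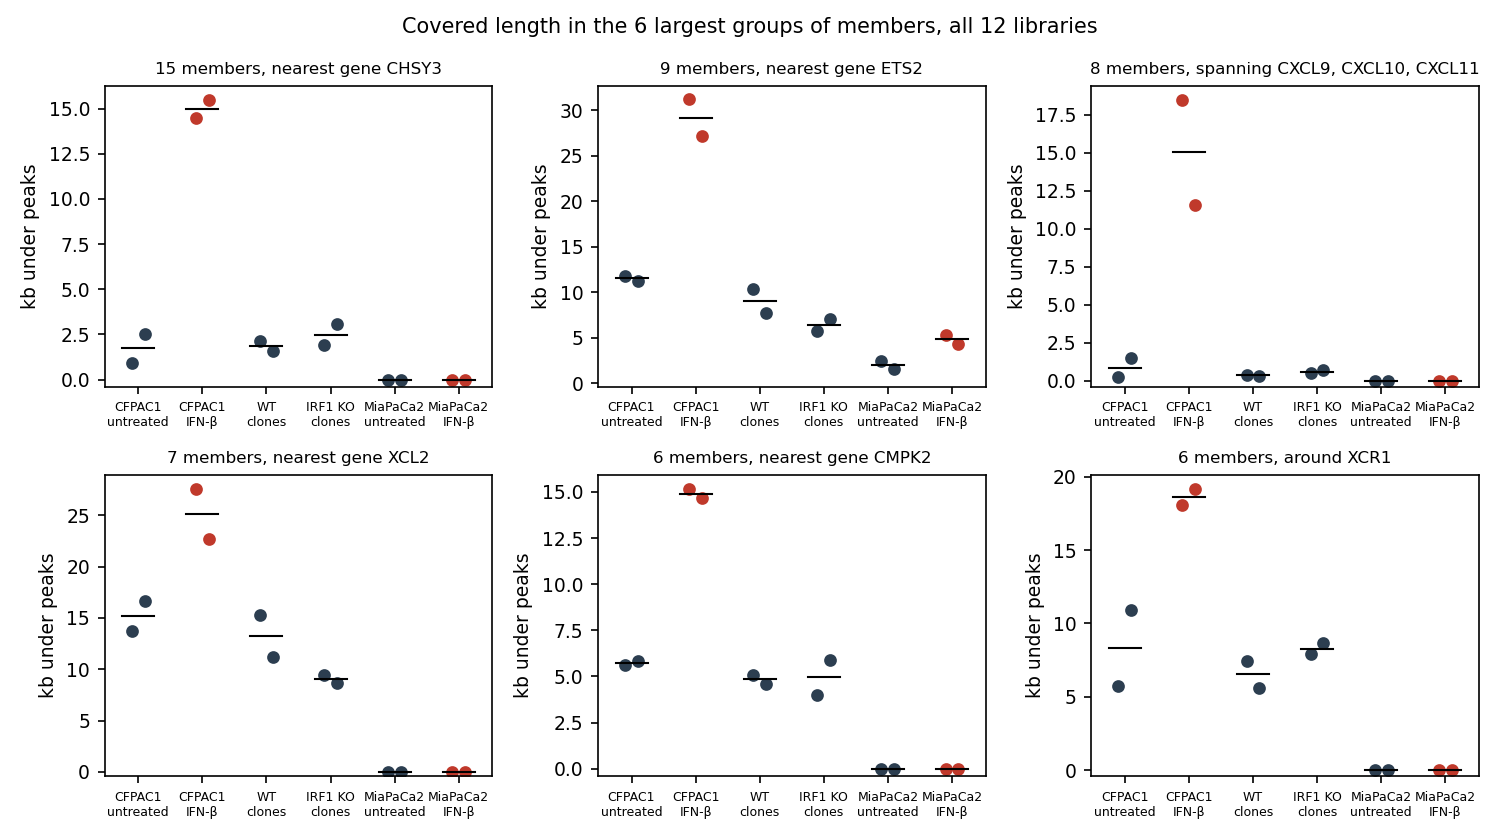
Length under peaks (kb, vertical) over the whole span of each of the 6 largest groups of restricted loci, in every library; points are the 2 libraries of a group, lines their mean, red the IFN-β libraries. The treated CFPAC1 points are highest in each panel, the CHSY3 and CXCL spans are at 0 in MiaPaCa2 and reach at most 3060 and 1473 bp in the other libraries, and the ETS2, XCL2 and XCR1 spans were already covered in untreated CFPAC1 and in the clones.

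Most restricted loci lay away from the ends of protein-coding genes, although many were inside a gene body. Within 1 kb of a protein-coding gene end were 72 of them (2.83%), against 13.2% of all loci, 6.02% of loci gained in both lines, 7.03% of those gained in MiaPaCa2 only and 7.90% of the 18900 loci with a peak in all 4 bulk CFPAC1 libraries and none in MiaPaCa2 (steady loci). Over 50 kb away were 50.3%, against 29.8% of all loci, 24.5% of loci gained in both lines and 39.7% of steady loci. The median distance was 50.5 kb, against 18.7 kb for all loci and 33.1 kb for steady loci. A gene body held 46.8% of the restricted loci, against 60.9% of all loci and 53.7% of steady loci. In these 3 measures the steady CFPAC1 loci thus also differed from all loci, in the same direction and by less. The median width was 571.5 bp, against 1204 bp for loci gained in both lines and 1414 bp for steady loci. From the nearest untreated CFPAC1 peak the restricted loci lay a median of 6.08 kb away, with 705 (27.7%) within 1 kb and 1100 (43.2%) more than 10 kb away. The part of locus width in these shares was not tested.

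**Figure D3:**
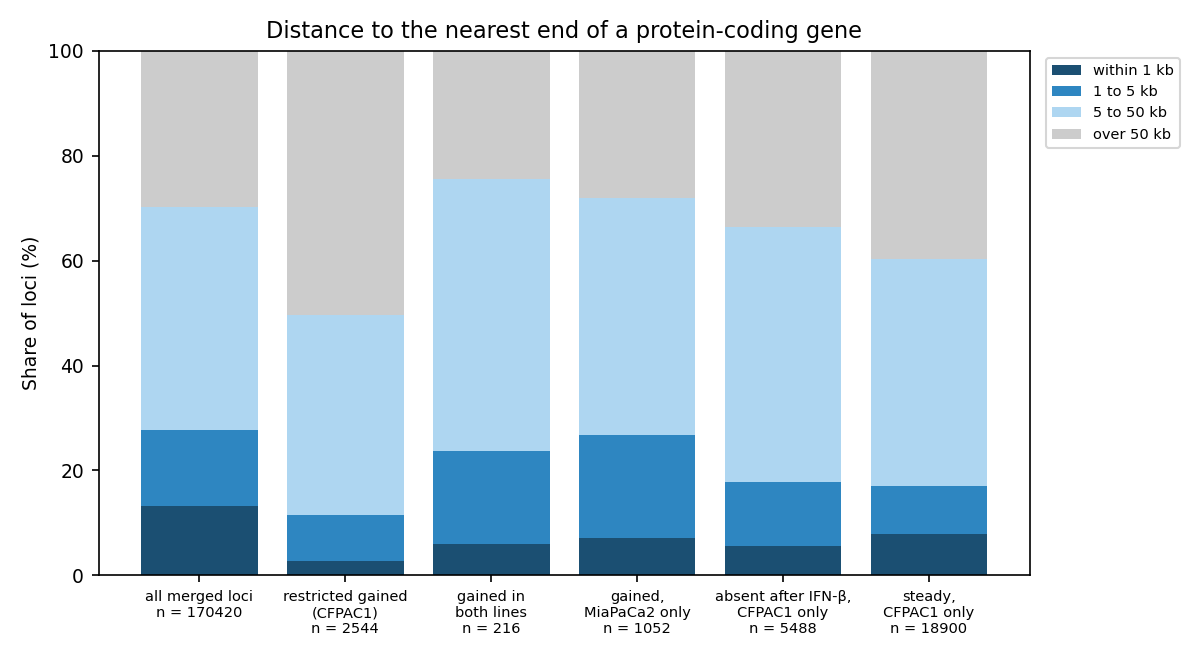
Share of loci (%, vertical) by distance to the nearest protein-coding gene end, for all merged loci, the restricted gained loci and 4 other classes, with the number of loci under each bar. Restricted gained loci have the smallest share within 1 kb (2.83%) and the largest share over 50 kb (50.3%) of the 6 classes shown.

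By chromosome, the restricted loci ranged from 0.196 per 100 merged loci on chromosome 19 (15 of 7661) to 2.88 on chromosome 4 (236 of 8184). Chromosomes 22 (0.498) and 17 (0.658) were next lowest, and X (2.25) and 5 (2.11) next highest. The steady loci also had a smaller share on chromosome 19 (1.33% against 4.50% of all loci) and a larger one on chromosome 4 (7.28% against 4.80%).

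**Figure D4:**
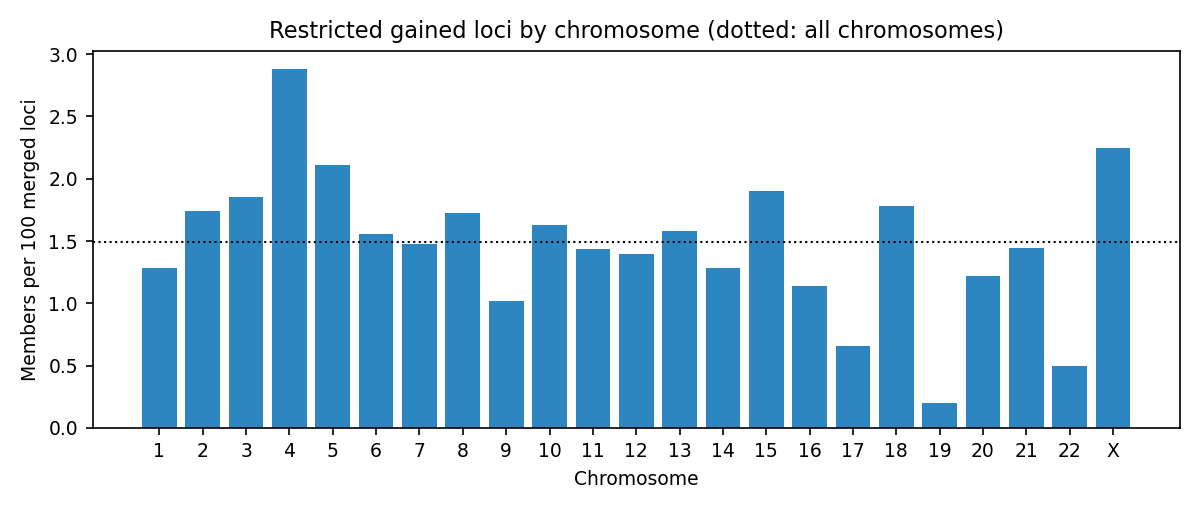
Restricted gained loci per 100 merged loci (vertical) on each chromosome (horizontal), with the dotted line at the value for all chromosomes, 1.49. Chromosome 4 is highest at 2.88 and chromosome 19 lowest at 0.196.

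The clones, which the rule did not use, show how many of these loci carry acetylation in CFPAC1 cells for which no IFN-β is given. WT clones 1 and 2 had a peak at 260 (10.2%) and 206 (8.10%) of the restricted loci, and IRF1 knockout clones 1 and 2 at 187 (7.35%) and 346 (13.6%). The groups overlap, since the knockout clones lay on either side of both WT clones. The means were 233.0 ± 38.2 and 266.5 ± 112.4 loci (SD, n = 2), a difference of 33.5 loci (two-sided exact permutation p = 1). The smallest p that 2 against 2 allows is 0.3333. The difference was -2.5 loci with peaks of −log10 q of at least 5 and -58.5 when all lists were trimmed to equal length, so its direction depended on the peak lists. No clone had a peak at 1918 of the restricted loci (75.4%). At least 1 clone had a peak at 52.1% of all merged loci. All 4 clones had a peak at 31 restricted loci (1.22%), against 23.3% of all loci.

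The mean share with a peak was 9.16% ± 1.501 in WT and 10.5% ± 4.42 in knockout clones (SD, n = 2). For steady CFPAC1 loci it was 88.8% and 82.6%. For the 5488 loci (3.22% of all) that had a peak in both untreated and neither treated CFPAC1 library, with none in MiaPaCa2, it was 45.8% and 45.4%. The rule required no peak in untreated CFPAC1 for the restricted loci and a peak in both untreated libraries for the other classes, so nothing is read from the order of these shares, which follows the choice of loci. The WT share depended on which untreated libraries the rule used: it was 18.2% without untreated library 1, 25.8% without untreated library 2 and 16.0% with equal numbers of peaks.
In each of the 4 clones, peaks were more frequent at restricted loci within 1 kb of an untreated peak than at those over 10 kb away. Within 1 kb of one, the shares were 16.7% ± 6.22 (WT) and 16.5% ± 6.12 (knockout), and more than 10 kb away 5.55% ± 0.900 and 7.64% ± 4.24. Among the 623 strongest loci by their smaller fold the shares were 7.38% ± 1.14 and 7.22% ± 3.63, and 79.5% had no clone peak. Loci gained in both lines had shares of 4.86% ± 1.64 and 6.48% ± 3.27.

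**Figure D5:**
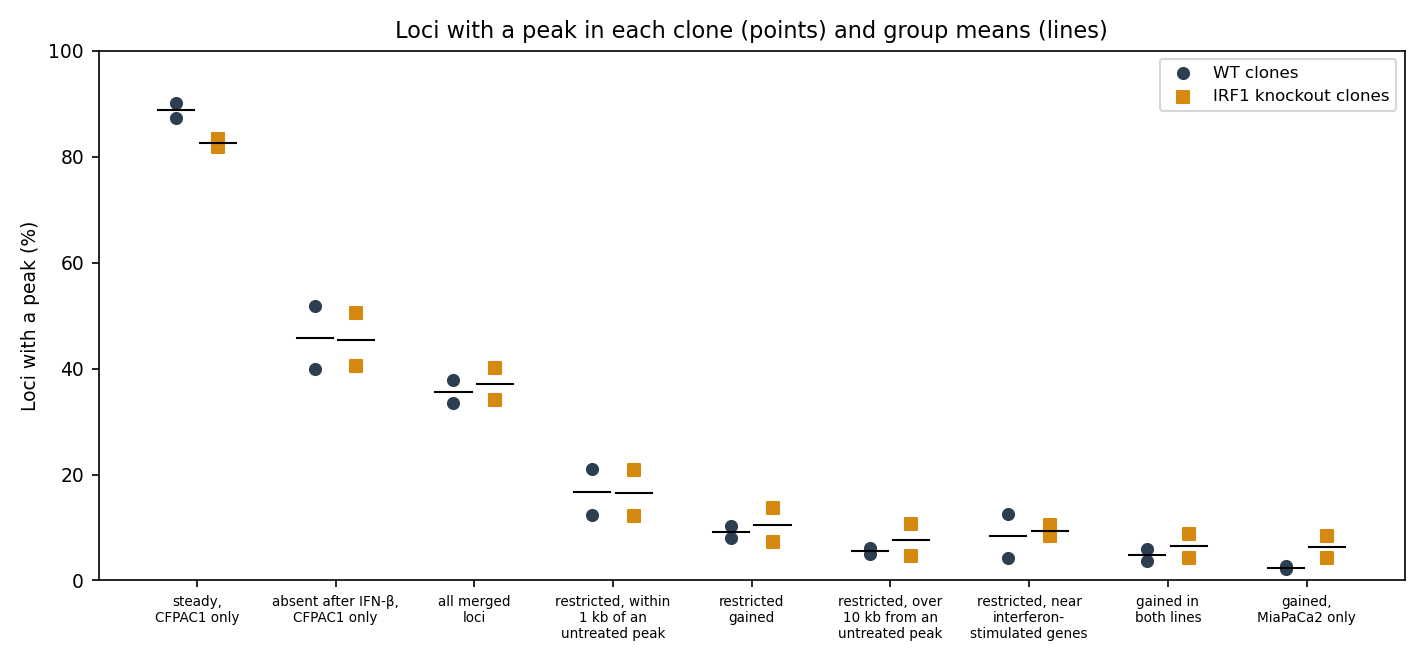
Share of loci with a peak (%, vertical) in each WT clone (circles) and each IRF1 knockout clone (squares), with lines at group means, for classes of loci (horizontal). Restricted gained loci sit between 7.35% and 13.6%, below steady loci and below loci absent after IFN-β. The WT and knockout points overlap for the restricted gained loci, but not for every class shown.

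Presence of both WT and neither knockout clone was found at 21 restricted loci (0.825%), against 1.57% of all loci. The opposite was found at 34 (1.34%), against 1.8% of all loci. The covered length per locus was also compared with limma over the 66887 loci covered in at least 2 clones, of which 252 were restricted loci. After Benjamini-Hochberg adjustment no locus was called (0%), while 7330 had an unadjusted p under 0.05. The smallest adjusted p was 0.363. Without knockout clone 1, the fit called 2194 loci (250 higher and 1944 lower in the knockout), and without the filter on covered clones it called 2677. Without that filter, the 2677 called among 170420 loci included 1 of the 2544 restricted loci, at ADAMTS3 (chr4:72318273-72321076). It had 456 and 1618 bp in the WT clones and 202 and 0 bp in the knockout clones. Without knockout clone 1 its log2 difference was -3.29, and it entered that fit only through the WT clones. Nothing is therefore read from this locus.

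The restricted loci with the smallest unadjusted p had peaks in 1 genotype only. Each entered the fit, which asked for cover in at least 2 clones, only through the genotype with peaks. Nothing is therefore read from this pattern. At BACH2, a transcriptional repressor of lymphocytes, peaks inside the gene covered 0 and 0 bp in the WT clones and 639 and 435 bp in the knockout clones (chr6:90218966-90219717). At SEPTIN4 the values were 0 and 0 against 399 and 664 bp, at TBC1D7 0 and 0 against 379 and 581 bp, and near ARHGAP12 0 and 0 against 383 and 1198 bp. Near ELOVL6, a fatty acid elongase (chr4:110286415-110287130), the order was the opposite, with 440 and 455 bp in the WT clones and 0 and 0 bp in the knockout clones. Each had an adjusted p of 0.363 by limma, so none passed the threshold.
Of the 48 interferon-stimulated gene loci, WT clones had a peak at 6 and 2 and knockout clones at 4 and 5. SP100, a component of PML nuclear bodies, had a peak in all 4 clones (395 and 286 bp in WT, 209 and 395 bp in knockout). GMPR did too, with 246 and 265 bp against 293 and 293 bp. ISG20, an exonuclease for single-stranded RNA, had 0 and 0 bp in WT and 49 and 201 bp in knockout clones (log2 difference 1.08 ± 0.55 SE, limma adjusted p = 0.677). None of these 3 loci passed the limma threshold, and ISG20 entered the fit only through the knockout clones.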

How the data were processed

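H3K27ac ChIP-seq was analysed in 12 libraries of 6 groups, taken from the sample labels. Per the submitters' processing notes, which name Trimmomatic 0.38, Bowtie2 2.2.6, SAMtools, MACS2 2.1.0.20150731 and GRCh38, the deposited files are MACS2 peak lists. There is 1 list per library, so replicates were not pooled. The control library, filters and read depth are not given in the sources used here, and no interval that needs a depth was computed. Each deposited peak has a fold ratio over background, a −log10 p, a −log10 q and a score. The deposited score was 10 times the −log10 q without decimals, except at 8 of 1019558 peaks, and was not used. The authors' fold and −log10 values rank or filter peaks within a list only. The smallest deposited −log10 q was 1.30 to 1.37, with 1.37 in IRF1 knockout clone 1.

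Peaks elsewhere than on chromosomes 1 to 22 and X (0 to 55 per library) were left out. The lists carry no strand, and the gene table no gene starts. Distances are to the nearer end of a protein-coding gene in RefSeq GRCh38.p14, and exons were not used here. Covered length is the bp under peaks, which measures extent and not height. For the clones, log2(covered bp + 100) per locus, centred on each library's mean, was fitted with limma 3.58.1 (R 4.3.3, trended prior) over loci covered in at least 2 of the 4 clones. P-values were adjusted by Benjamini-Hochberg and called at 0.05. Fold changes on this scale depend on the 100 bp. On data simulated for the IRF1 knockout against WT clones over 66887 loci, with the noise of these libraries, this fit recovered 4 of 100 loci changed by 2 and 34 of 100 changed by 4 on the log2 scale, with 0 false calls. Counts of loci per clone were compared by an exact permutation test. Python 3.11.15, numpy 2.4.6, pandas 2.3.3, scipy 1.17.1 and matplotlib 3.10.9 were used.

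The members and the gene lists (interferon-stimulated genes, genes of interferon signalling, of antigen presentation and of NF-κB and inflammation, and epithelial, mesenchymal, leukocyte, endothelial and fibroblast genes) were chosen with earlier results of these data known. Named loci are the 20 strongest by the worse of 2 fold ranks, the 10 widest, those at the first 4 lists, those at the 5 genes with most loci, the 5 with the smallest clone p and those over a promoter that is printed; the groups of neighbouring loci and ADAMTS3 were chosen after their values were seen. Alternatives were a −log10 q of at least 5, equal numbers of peaks (59896), 200 bp of overlap, merging within 500 bp, assignment within 10 kb, other pseudocounts, filters and scalings, and leaving out each library. A result on an item withheld for evaluation is not reported here.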

Additional observations from a re-analysis of the deposited data

How the results depend on the processing

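The number of restricted gained loci was 1684 with peaks of −log10 q of at least 5 and 1677 with peaks within 500 bp merged. Leaving out each bulk library in turn gave 2556 to 9386. Loci assigned to interferon-stimulated genes numbered 23 with peaks within 500 bp merged, and 48 to 166 when each library was left out. The difference between knockout and WT clones in restricted loci with a peak turned to -2.5 at a −log10 q of at least 5 (exact permutation p = 1) and to -58.5 with equal numbers of peaks (exact permutation p = 0.3333). Called loci between the clones by limma numbered 2677 without the filter and 0 to 2194 with each clone left out, where the lone clone was assumed to vary like the other group; the other 7 alternatives each called 0. The cause of these changes was not tested.

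Same-numbered clones did not deviate together (correlation of deviations -0.106 over 66887 loci), and the clone number is only a name. With it as a replicate block limma called 0 loci (smallest adjusted p 0.526), and with the numbers crossed, an alternative added after seeing the data, it also called 0. The share of restricted loci within 1 kb of a gene end stayed at 2.52 to 3.55% over the left-out libraries.

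Presence and absence are those of called peaks, signal under the calling threshold is not in the lists, and the unknown depth limits what absence means. With 2 libraries a group, no permutation test can fall below 0.3333.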

Other observations

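At the 38 promoter windows over a restricted locus, 19 belonged to protein-coding genes: APOBEC2, APOBEC4, CAPN8, CFAP77, CHRNA1, CXCL10, CXCL11, DENND2B, HLA-G, ITGA4, KIF6, MAPK10, MREG, OR4D9, PARP8, SLAMF6, SLFN12L, SSTR2 and ZFHX3. CHRNA1, which encodes the muscle acetylcholine receptor alpha subunit, had a restricted locus over its promoter (chr2:174763987-174764777) covered over 791 and 475 bp, and a stronger one beside it (chr2:174764857-174766234) of 1378 and 1082 bp with folds of 14.0 and 11.2. In the clones these had 363 and 224 bp in knockout clone 2 and 0 bp elsewhere. SLAMF6, a receptor of lymphocytes, lay in a group of 4 restricted loci with CD84, where peaks covered 1567 and 1013 bp in untreated and 5632 and 4141 bp in treated CFPAC1. ITGA4, the alpha 4 integrin, had 200 and 452 bp after IFN-β, 0 and 0 bp in WT clones and 342 and 414 bp in knockout clones. Peaks in both knockout clones and neither WT clone were found at 34 restricted loci (1.34%), against 1.8% of all loci. The ITGA4 locus entered the limma fit only through the knockout clones and was not called, so nothing is read from its pattern.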
